A study of Mus musculus with 4 samples.

Results

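Small nucleolar RNAs (snoRNAs) and the transcripts that carry them were measured in Beta-TC-6 cells transfected with siRNA against NF90 (siNF90, 2 arrays) or with a negative control siRNA (siNTC, 2 arrays). Members were the probe sets whose only gene symbol on the platform begins with Snord, Snora, Scarna or Snhg, and where a gene had several such probe sets the brightest over the 4 arrays was used. This gave 93 genes of the 22180 with a symbol of their own, namely 47 box C/D genes (Snord), 26 box H/ACA genes (Snora), 5 Cajal body genes (Scarna) and 15 host transcripts (Snhg). The rule itself uses no measured value beyond picking between probe sets of a gene, but it was set with earlier results of these data known. Gas5, a further host transcript that the rule asked for, shares its probe set with a microRNA gene and is given apart from the members. The label of each class rests on the gene symbol, and the arrays cannot check it.

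Beta-TC-6 is an established mouse beta cell line, derived from an insulinoma of a transgenic mouse in which the insulin promoter drives a viral oncogene, so it divides as adult beta cells rarely do. NF90 binds double-stranded RNA. The siNF90 cells received 3 RNAi duplexes mixed together, with a lipid reagent, and the siNTC cells received the control siRNA in the same way. Total RNA from a column kit that retains small RNA was converted to labelled single-stranded DNA and hybridized to Affymetrix Mouse Gene 2.1 ST arrays, and both groups share the cell line and the medium. Whether replicate arrays stand for separate cultures is not stated in the labels, so the p-values cover just the spread among these arrays and that spread may be technical. NF90 depletion itself is not reported here, and arrays are called by their label.

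Box C/D snoRNAs guide 2′-O-methylation and box H/ACA snoRNAs guide pseudouridylation, mainly of ribosomal RNA, while the Cajal body RNAs guide the same modifications of spliceosomal small nuclear RNAs. A few snoRNAs act in the cleavage of the ribosomal RNA precursor instead. In mammals nearly all of them lie in introns of host genes and are trimmed out of the excised intron, so that the mature snoRNA and the spliced host RNA come from the same transcript but have separate lives. Many hosts are ribosomal protein or ribosome biogenesis genes, and others, the Snhg genes, are noncoding transcripts whose spliced RNA is often short-lived. A probe set reads any RNA that holds its sequence, so a mature snoRNA and the unspliced host that contains it cannot be told apart here. In bulk RNA, fewer cells of a type and less RNA per cell cannot be told apart either.

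Host transcripts of this kind are known for starting at a terminal oligopyrimidine tract, a C followed by a run of C and T. It was searched as a C followed by at least 4 letters that are each C or T, on the transcribed strand only, starting within 5 bases of the annotated RefSeq start (build GRCm38.p6). It was held by 6 of the 13 host transcript members with a promoter entry (46.2%), by 17 of 46 genes that hold a snoRNA member (37%) and by 22 of 52 ribosomal protein genes (42.3%), against 5328 of all 27025 genes with an entry (19.7%). The 4 windows below run 5′ to 3′ from 60 bases before the start through the first 40 transcribed bases, and capitals mark the tract. They belong to the host of Snora16a, Snora61, Snora44 and Snord99, to the host of the U17 snoRNAs Snora73a and Snora73b, to the host of Snord49a, Snord49b and Snord65, and to the Snhg member with the largest difference, whose window holds no such tract.
Snhg12, chr4:132308618-132308717 (+): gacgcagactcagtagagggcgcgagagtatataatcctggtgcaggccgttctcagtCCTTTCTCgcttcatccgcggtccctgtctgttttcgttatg
Snhg3, chr4:132353647-132353746 (-): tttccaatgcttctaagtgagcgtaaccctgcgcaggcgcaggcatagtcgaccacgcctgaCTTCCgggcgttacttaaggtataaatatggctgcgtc
2410006H16Rik, chr11:62602817-62602916 (+): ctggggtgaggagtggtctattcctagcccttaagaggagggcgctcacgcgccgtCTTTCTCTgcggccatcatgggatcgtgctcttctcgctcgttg
Snhg15, chr11:6528721-6528820 (-): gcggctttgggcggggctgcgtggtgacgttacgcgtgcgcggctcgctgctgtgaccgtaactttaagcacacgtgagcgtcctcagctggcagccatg
A match of letters is a description and not a mapped start.

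Values are on the deposited log2 scale (base 2 is taken, not stated by the sources used here), and a difference is the mean of the siNF90 arrays minus the mean of the siNTC arrays, with the standard error (SE) of the limma fit over all 22180 genes. Probe sets differ in how brightly they hybridize, so a value is read against the same probe set on other arrays and not against another gene. Replicate arrays correlated across genes at 0.9919 in siNF90 and 0.9927 in siNTC, and arrays of different groups at 0.9895 to 0.9913. The median gap between the 2 arrays of a group over all genes was 0.15 in siNF90 and 0.15 in siNTC. Of 8 beta cell markers, 8 had a level at or above the median of all genes (1.845), among them Iapp at 10.27 and 10.33 in siNF90 and 10.58 and 10.35 in siNTC, while all 5 exocrine and duct markers lay below it. The beta cell markers moved both ways: Slc2a2, the glucose transporter, read 4.78 and 4.86 in siNF90 and 6.0 and 5.80 in siNTC (-1.08, adjusted p 0.0153 with a trend in the prior variance), while Nkx6-1 (0.45) and Mafa (0.38) were higher without overlap. Gcg, the glucagon gene of alpha cells, read 8.88 and 8.78 in siNF90 and 8.50 and 8.75 in siNTC, so other islet hormone genes were also present. Of 5 stroma, endothelium and blood markers, Col1a1, Pecam1 and Ptprc lay below the median level, but Cd68, a macrophage marker, read 4.44 and 4.48 in siNF90 and 3.32 and 3.35 in siNTC (1.125, adjusted p 0.0217 with the trend). Vim, a mesenchymal filament gene, read 3.42 and 2.93 in siNF90 and 2.66 and 2.46 in siNTC (0.615), also without overlap. The summed level of the 5-gene list, taken out of the log, was 38.4 to 39.1 in siNF90 and 23.3 on both siNTC arrays, and its part in the snoRNA values was not tested. None of these markers was at 0 on any array, and without a background measure in the table no low value can be told from absence.

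No member passed an adjusted p of 0.05 in the limma fit, and neither did any gene of the whole table (0% of 22180). With the prior variance fitted as a trend on level, 101 genes passed (0.455%), 52 higher and 49 lower in siNF90, and Snora33 was the 1 member among them. The smallest adjusted p of a member without the trend was 0.357 (limma, Benjamini-Hochberg over all genes). At an unadjusted p under 0.05, 12 of the 93 members were higher in siNF90, against 1303 of all genes (5.87%), and 3 were lower, against 978 (4.41%). Among the 11455 genes at or above the median level, 947 were higher and 732 lower at that threshold. Differences below therefore describe these 4 arrays, and "higher" and "lower" are used of the values, not of a call.

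The members leaned to the siNF90 side by a small amount. Of the 93, 55 were higher in siNF90, 36 lower and 2 equal, with a median difference of 0.08, beside a median of 0.015 over all genes (11773 higher, 10153 lower). The siNF90 pair lay wholly above the siNTC pair for 30 members (32.3%), against 21.9% of all genes and 26.3% of genes at or above the median level. It lay wholly below for 14 members (15.1%), against 17.9% of all genes and 21.8% of genes at that level. Of the 93 members, 86 reached the median level in their higher group, so the second of each pair of backgrounds is the closer one. Against it the shares differ by a few genes in each direction, and no test of that difference was made. Some members share a host and are not separate observations. Probe sets left out because they carry several symbols held 32 distinct sets of values, 16 higher and 16 lower in siNF90. Of these 32, 6 stood above without overlap and 4 below, so the lean was not seen in their directions.

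The median differences of the classes lay within 0.1 of 0 except in the smallest class. The median difference was 0.085 over box C/D, 0.0925 over box H/ACA, 0.235 over the 5 Cajal body genes and 0.06 over the host transcripts. Leaving out each array gave 0.105 to 0.23 for the Cajal body genes and -0.03 to 0.125 for the host transcripts, the sign turning without the second siNTC array. The Cajal body median is 0.105 without the first siNF90 array and 0.11 without the first siNTC array. Higher and lower genes numbered 27 and 19 in box C/D, 16 and 9 in box H/ACA, 3 and 2 in the Cajal body class and 9 and 6 among host transcripts. The arrays stood apart with siNF90 above for 15 of 47 box C/D (31.9%) and 8 of 26 box H/ACA genes (30.8%). The same held for 2 of 5 Cajal body (40%) and 5 of 15 host genes (33.3%). With siNF90 below, the counts were 9 (19.1%), 2 (7.69%), 2 (40%) and 1 (6.67%). Among all genes 21.9% stood above and 17.9% below, and among genes at or above the median level 26.3% and 21.8%. No class was tested against these shares. Single genes ranged much more widely than the class medians, from -0.93 for Snord23 to 0.845 for Snord53, both in box C/D. Differences of at least 0.5 were seen for 7 members, differences of -0.5 or less for 2, and no member reached a difference of 2-fold. Of all 22180 genes, 510 and 369 passed these limits, and 40 reached 2-fold in either direction. Of the 11455 genes at or above the median level, 419 and 298 passed them.

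**Figure D1:**
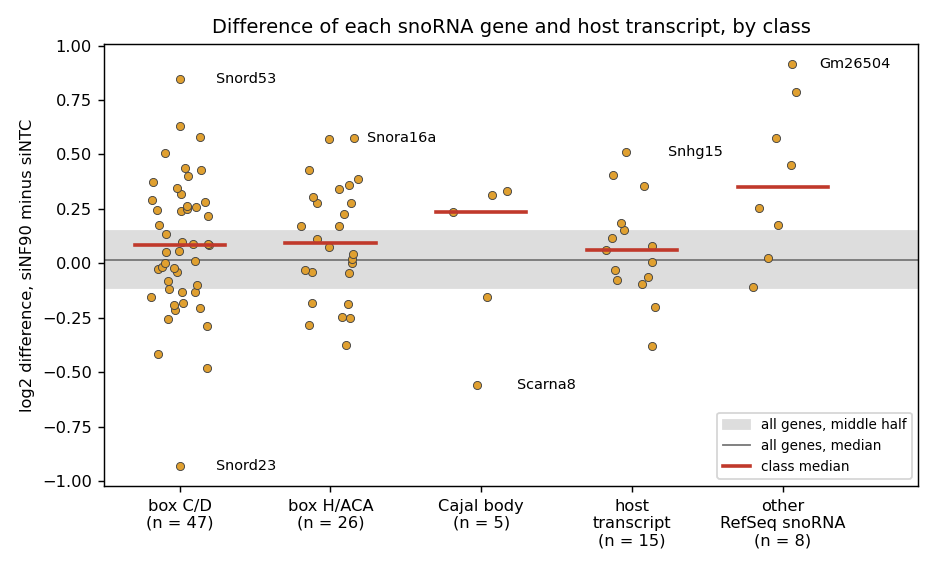
Each point is a gene, placed by its difference between siNF90 and siNTC on the log2 scale, in the class named on the horizontal axis. The red bars are the class medians (0.085, 0.0925, 0.235 and 0.06 for the 4 member classes), the grey line and band are the median and the interquartile range of all 22180 genes, and every member class has points on both sides of that line.

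In box C/D, the snoRNA with the largest difference on the siNF90 side was Snord53, which read 4.86 and 4.55 in siNF90 and 3.91 and 3.81 in siNTC. The groups did not overlap, and the difference of 0.845 ± 0.149 (SE) is larger than the gap between the replicate arrays of either group (0.31 in siNF90, 0.10 in siNTC), yet its adjusted p was 0.357, or 0.0627 with the trend. Snord66, assigned in human to a methylation of small subunit rRNA, read 4.89 and 4.92 in siNF90 and 4.42 and 4.23 in siNTC. Its difference was 0.58 ± 0.128, with an adjusted p of 0.357.

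A further 6 named box C/D genes were higher with no overlap, the first 3 being guides of large subunit rRNA in human. Snord104 read 7.0 and 6.72 in siNF90 and 6.25 and 6.46 in siNTC (difference 0.505). Snord35a, held in the ribosomal protein gene Rpl13a, read 7.08 and 7.22 in siNF90 and 6.62 and 6.80 in siNTC (0.44). Snord55 read 6.92 and 7.14 in siNF90 and 6.65 and 6.55 in siNTC (0.43). In these 3 genes the lower siNF90 array lay 0.26 to 0.28 above the higher siNTC array. Snord49a read 7.14 and 7.30 in siNF90 and 6.86 and 6.83 in siNTC (0.375), and its neighbour Snord49b read 8.16 and 7.94 in siNF90 and 7.66 and 7.86 in siNTC (0.29). Snord15a, held in Rps3, read 4.69 and 4.98 in siNF90 and 4.43 and 4.60 in siNTC (0.32). The adjusted p of these 6 genes lay between 0.414 and 0.555. The difference is 0.18 for Snord49b without the first siNF90 array and 0.175 for Snord15a without the second. Beside Snord99, described below, the box C/D genes still to name with both siNF90 arrays above were Snord8, Snord42b, Snord110, Snord47, Snord11 and Snord35b, with differences between 0.135 and 0.265.

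Other large differences in box C/D rested on a single array or overlapped. Snord88c read 2.99 and 3.21 in siNF90 and 3.10 and 1.84 in siNTC, so that its 0.63 ± 0.389 comes from the second siNTC array, and the difference is 0 without it. Snord83b read 3.37 and 3.65 in siNF90 and 2.85 and 3.37 in siNTC (0.40), the lower siNF90 and the higher siNTC value being equal. Snord88a read 2.16 and 1.91 in siNF90 and 1.44 and 1.94 in siNTC (0.345).

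On the other side stood Snord23, the member with the largest difference of all. It read 3.09 and 2.84 in siNF90 and 4.13 and 3.66 in siNTC, a difference of -0.93 ± 0.193 or 1.91-fold lower in siNF90, with an adjusted p of 0.357, or 0.108 with the trend. No overlap was seen, although the siNTC arrays were 0.47 apart. Snord1b read 6.11 and 6.20 in siNF90 and 6.95 and 6.32 in siNTC (-0.48), and without the first siNTC array the difference is -0.165. Snord73a read 4.52 and 4.66 in siNF90 and 4.91 and 5.10 in siNTC (-0.415), while Snord73b, held in the same gene Rps3a1, read 5.99 and 5.61 in siNF90 and 5.85 and 5.80 in siNTC (-0.025). The first of the pair was lower without overlap and the second overlapped.

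Smaller negative differences without overlap were found for Snord111 at 4.51 and 4.47 in siNF90 and 4.63 and 4.93 in siNTC, and for Snord72 at 4.76 and 4.63 in siNF90 and 4.99 and 4.81 in siNTC. Snord70, held in Nop58, read 5.31 and 5.67 in siNF90 and 5.68 and 5.73 in siNTC. Snord58b, Snord87 and Snord61 were lower by smaller amounts, with differences between -0.13 and -0.08. Snord19, with -0.255, Snord89, with -0.18, and Snord43, with -0.155, overlapped between groups.

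The box C/D members named here for roles other than guided methylation had differences of -0.19 to 0.085. Snord3a was also looked for and is not among the members. Probe sets shared with another gene are not counted, such as those of Snord14a with Rps13 (-0.43) and Snord14e with Hspa8 (-0.035). Snord118 (U8), which in Xenopus is required for the processing of large subunit rRNA, read 3.77 and 3.06 in siNF90 and 3.36 and 3.37 in siNTC (0.05 ± 0.236), with the siNTC values inside the siNF90 pair. Snord13 (U13), which guides acetylation of small subunit rRNA in human, read 5.32 and 5.0 in siNF90 and 5.43 and 5.27 in siNTC (-0.19). Snord22 (U22), needed in Xenopus for small subunit rRNA processing, had the highest values of the class, at 9.33 and 9.11 in siNF90 and 9.10 and 9.17 in siNTC (0.085). Snord99 read 8.55 and 8.59 in siNF90 and 8.49 and 8.47 in siNTC (0.09), a small shift that was nevertheless without overlap. Over the whole class the per-array median was 5.31 and 5.34 in siNF90 and 5.42 and 5.27 in siNTC, so the class centre overlapped between groups.

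**Figure D2:**
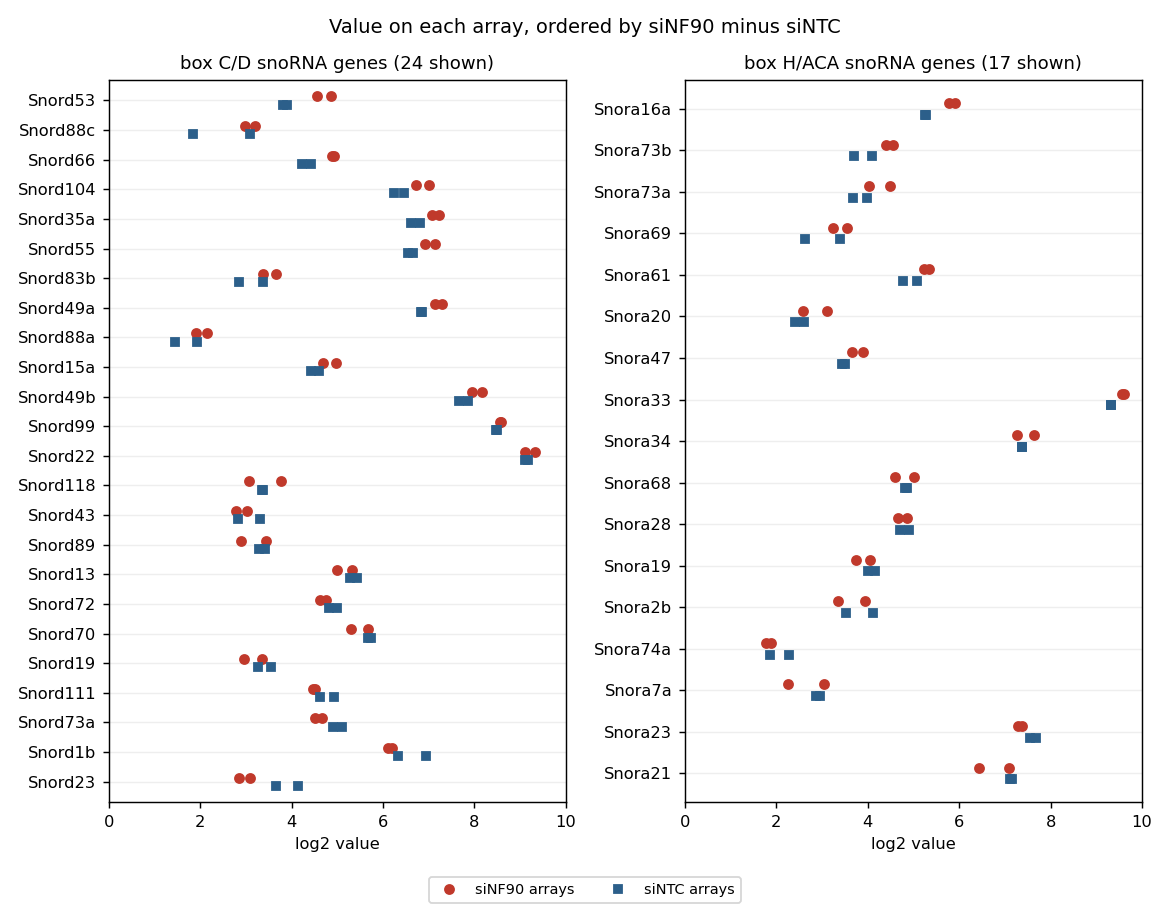
Log2 values of the named box C/D (left) and box H/ACA (right) genes on each array, with siNF90 as red circles and siNTC as blue squares, ordered from the largest positive difference at the top to the largest negative at the bottom. Snord53 at the top and Snord23 at the bottom of the left panel show wide gaps between the groups, while Snord22 and Snord118 overlap.

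In box H/ACA the largest difference was that of Snora16a, which read 5.90 and 5.78 in siNF90 and 5.25 and 5.28 in siNTC. Its difference was 0.575 ± 0.121, with an adjusted p of 0.357, or 0.0627 with the trend. The U17 RNAs, which act in the cleavage that frees the small subunit rRNA rather than as modification guides, were next. Snora73b read 4.56 and 4.39 in siNF90 and 4.10 and 3.71 in siNTC (0.57 ± 0.169, adjusted p 0.409). Snora73a read 4.49 and 4.03 in siNF90 and 3.99 and 3.67 in siNTC (0.43 ± 0.199, adjusted p 0.533). Both U17 copies were higher without overlap, although for Snora73a the nearest arrays of the groups were only 0.04 apart and its difference is 0.20 without the first siNF90 array. The copies are closely related in sequence, and a probe set of either may read both.

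Snora33, a guide of large subunit rRNA in human held in Rps12, had the highest values of the class, at 9.61 and 9.56 in siNF90 and 9.31 and 9.31 in siNTC. Its difference of 0.275 ± 0.116 had an adjusted p of 0.499, and 0.0465 with the trend, the lowest of any member. A second probe set with the same symbol read 2.14 and 2.34 in siNF90 and 2.61 and 2.64 in siNTC, which is the opposite direction. The call with the trend therefore holds for the brighter of 2 disagreeing probe sets.

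Another 4 box H/ACA genes were higher without overlap. Snora61 read 5.34 and 5.23 in siNF90 and 5.07 and 4.78 in siNTC (0.36). Snora47 read 3.89 and 3.66 in siNF90 and 3.44 and 3.50 in siNTC (0.305). Snora44 read 4.21 and 4.54 in siNF90 and 4.19 and 4.01 in siNTC (0.275), with its nearest arrays 0.02 apart, and Snora78 (0.11) lay below the median level. Snora69 (0.385) and Snora20 (0.34) had differences of like size with overlapping arrays. The difference is 0.19 for Snora47 without the first siNF90 array, 0.215 for Snora61 without the second siNTC array and -0.005 for Snora69 without the first siNTC array.

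Among box H/ACA genes only Snora21 and Snora23, both large subunit guides in human, were lower without overlap. Snora21 read 7.09 and 6.44 in siNF90 and 7.12 and 7.16 in siNTC, so that its -0.375 ± 0.221 is carried by the second siNF90 array and is -0.05 without it. Snora23, held in the nuclear import gene Ipo7, read 7.37 and 7.29 in siNF90 and 7.54 and 7.69 in siNTC (-0.285 ± 0.125, adjusted p 0.511). Snora7a (-0.25), Snora74a (-0.245), Snora2b (-0.185), Snora19 (-0.18), Snora28 (-0.045) and Snora68 (-0.04) overlapped between groups, and so did Snora34, a bright member at 7.63 and 7.27 in siNF90 and 7.37 and 7.38 in siNTC. The per-array median of the class was 4.515 and 4.415 in siNF90 and 4.17 and 4.06 in siNTC. These medians did not overlap, and their gap is larger than the median of the members' own differences (0.0925), which need not fall on the same gene.

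The 5 Cajal body RNAs did not share a direction. Scarna8, which guides modification of the U2 small nuclear RNA, read 2.90 and 3.09 in siNF90 and 3.47 and 3.64 in siNTC, a difference of -0.56 ± 0.137 with an adjusted p of 0.364. Scarna10, a guide of the U5 small nuclear RNA that joins both boxes in a single molecule, read 8.11 and 7.99 in siNF90 and 8.28 and 8.13 in siNTC (-0.155), with its nearest arrays 0.02 apart. Both were lower without overlap.

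Scarna2, which also guides U2 modification and has a promoter of its own in human, read 5.27 and 5.35 in siNF90 and 5.08 and 5.07 in siNTC (0.235 ± 0.117). Scarna17 read 5.80 and 5.87 in siNF90 and 5.59 and 5.42 in siNTC (0.33 ± 0.127, adjusted p 0.474), while its second probe set read 5.42 and 5.31 in siNF90 and 5.33 and 5.25 in siNTC, a smaller difference of 0.075. Scarna6 read 5.05 and 4.63 in siNF90 and 4.32 and 4.73 in siNTC (0.315) and overlapped. With Scarna2 and Scarna8 on opposite sides, guides of the same small nuclear RNA differed in direction here.

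Among the host transcripts, Snhg15 had the largest difference. It read 3.30 and 3.29 in siNF90 and 2.73 and 2.84 in siNTC, a difference of 0.51 ± 0.119 with an adjusted p of 0.357. Snhg3, the host of both U17 copies, read 4.72 and 4.80 in siNF90 and 4.56 and 4.59 in siNTC (0.185). Snhg4 read 4.70 and 4.83 in siNF90 and 4.64 and 4.58 in siNTC (0.155), and Snhg6 read 6.23 and 6.27 in siNF90 and 6.16 and 6.18 in siNTC (0.08). These 4 transcripts and Snhg18 were higher without overlap, but Snhg18, at 1.46 and 1.33 in siNF90 and 0.80 and 1.18 in siNTC, lay below the median level of all genes on every array.

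Snhg17 read 3.60 and 4.31 in siNF90 and 3.37 and 3.83 in siNTC (0.355), with overlapping arrays. Its other probe sets gave 0.35, at 3.03 and 3.0 in siNF90 and 2.63 and 2.70 in siNTC without overlap, and -0.005. Snhg1, the host of Snord22, was the sole host transcript lower without overlap, at 7.01 and 6.94 in siNF90 and 7.07 and 7.03 in siNTC, a difference of -0.075 that is below the typical gap between replicate arrays. Snhg14, the long imprinted transcript that carries the Snord116 cluster, read 3.11 and 3.56 in siNF90 and 3.45 and 3.98 in siNTC (-0.38 ± 0.233).

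Snhg5 read 4.41 and 4.87 in siNF90 and 4.84 and 4.84 in siNTC, and Snhg12 read 3.38 and 3.74 in siNF90 and 3.59 and 3.52 in siNTC, a difference of 0.005 ± 0.157 whose sign is negative after quantile normalization or median centring. Snhg20 (0.115), Snhg10 (0.06), Snhg9 (-0.03), Snhg7 (-0.065) and Snhg11 (-0.095) overlapped as well. The shared probe set of Gas5 and Mir5117 read 4.96 and 4.73 in siNF90 and 5.01 and 4.88 in siNTC. Gas5 is a growth-arrest transcript and holds Snord47, which read 6.79 and 6.93 in siNF90 and 6.63 and 6.60 in siNTC (0.245).

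**Figure D3:**
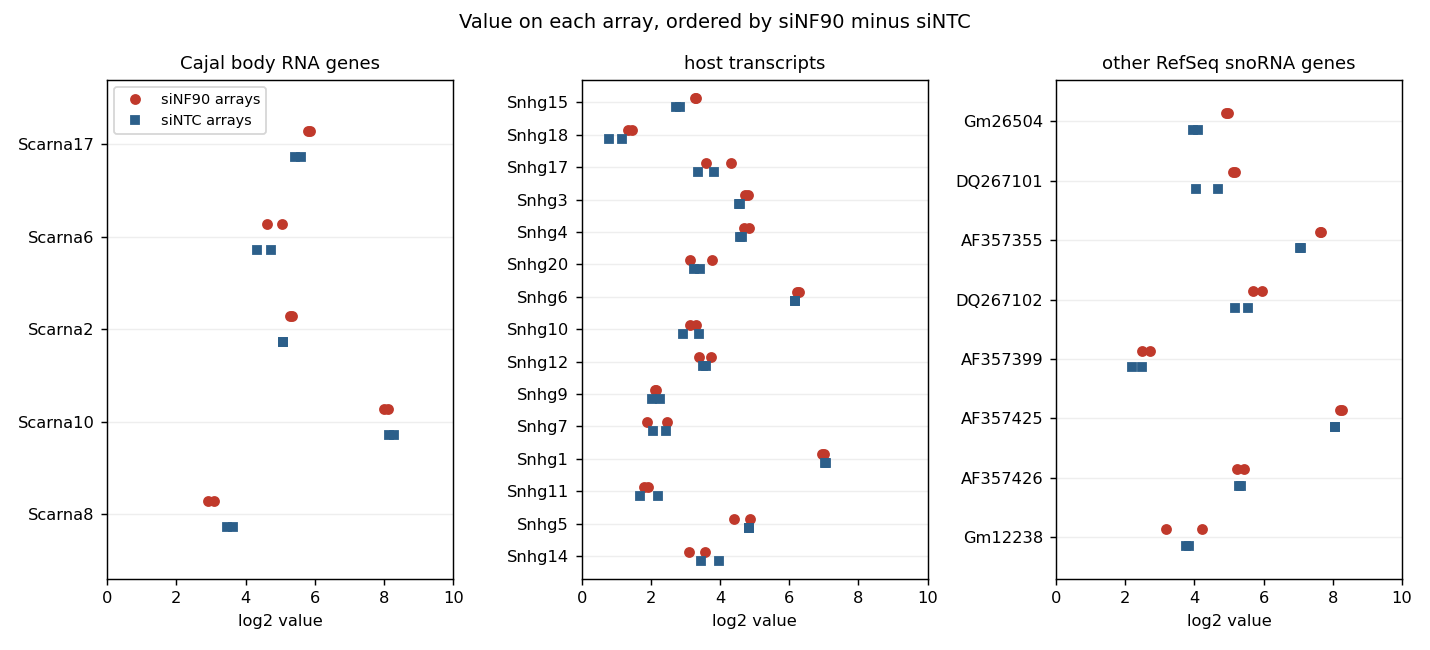
Log2 values of the 5 Cajal body genes (left), the 15 host transcripts (middle) and 8 snoRNA genes that RefSeq lists under other symbols (right), with siNF90 arrays as red circles and siNTC arrays as blue squares. Scarna8 sits lower and Snhg15 higher in siNF90 without overlap. Of the 8 genes on the right, 5 have both siNF90 arrays above both siNTC arrays, against 21.9% of all genes and 26.3% of genes at or above the median level. All of these 5 except Gm26504 lie in the same host, Rian, and are not separate observations.

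Each snoRNA was then set beside the gene that holds it in RefSeq. Of the 78 snoRNA members, 74 lie within such a gene and Snord13, Snord118, Scarna2 and Snord89 do not, and 60 have a host with a probe set of its own (46 hosts, 11 of them ribosomal protein genes), which leaves 14 whose host is not measured alone. The median difference over these 60 pairs was 0.08 for the snoRNA and 0.005 for the host. The 2 differences had the same sign in 32 pairs and opposite signs in 26, and 2 pairs held a difference of 0. Across the 60 pairs, which share hosts and arrays, Pearson's r was 0.117 and Spearman's rho 0.224, given as a description. The pairs were not filtered on level. Hosts such as Rpl37, Htr2c and Snhg18 lay below the median level of all genes, as did the snoRNAs Snord37, Snord123 and Snora35. The sign of a difference at such levels says little.

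Several hosts hold more than 1 measured snoRNA. Snhg12, near 0 itself, holds Snora16a, Snora61, Snora44 and Snord99, which were all higher in siNF90 without overlap, by 0.575, 0.36, 0.275 and 0.09. The noncoding gene 2410006H16Rik, with a difference of -0.03 ± 0.131, read 6.49 and 6.28 in siNF90 and 6.43 and 6.40 in siNTC and holds Snord49a, Snord49b and Snord65, the last with a difference of 0.055. In Snhg3 the host (0.185) and both snoRNAs were on the same side, with the snoRNA differences the larger.

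The snoRNAs with the largest differences in each direction lie in hosts with small or opposite ones. Snord53 lies in Wdr43, a component of the small subunit processome, which read 6.67 and 6.74 in siNF90 and 6.84 and 6.73 in siNTC (-0.08 ± 0.121). Snord92, in the same gene, read 2.80 and 3.27 in siNF90 and 3.16 and 2.35 in siNTC. Snord23 lies in Nop53, a ribosome biogenesis gene that read 5.15 and 5.04 in siNF90 and 4.80 and 4.91 in siNTC (0.24 ± 0.124), opposite in sign to its snoRNA.

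Ribosomal protein hosts had differences both like and unlike those of their snoRNAs. Rps12, the host of Snora33, read 8.62 and 8.52 in siNF90 and 8.27 and 8.28 in siNTC (0.295), close to the difference of its snoRNA. Rps3, the host of Snord15a, had a difference of 0.28 beside 0.32 for the snoRNA. Rpl32 read 7.28 and 7.40 in siNF90 and 6.78 and 6.87 in siNTC (0.515 ± 0.123, adjusted p 0.36), while its snoRNA Snora7a had -0.25 with overlapping arrays. Rpl3 (0.26) holds Snord83b (0.40) and Snord43 (-0.155). Tpt1, which is not a ribosomal protein gene and holds Snora31, had 0.46 beside 0.045 for the snoRNA.

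Of the 11 hosts with at least 2 measured snoRNAs, 4 (Gnl3, Kansl2, Nop58 and Rpl3) held snoRNAs with differences of opposite sign. The widest gap between snoRNAs of the same host was 0.565, within Wdr43, and the narrowest 0.01, within Ncl, the nucleolin gene, whose Snora75 and Snord82 had differences of 0 and 0.01.

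**Figure D4:**
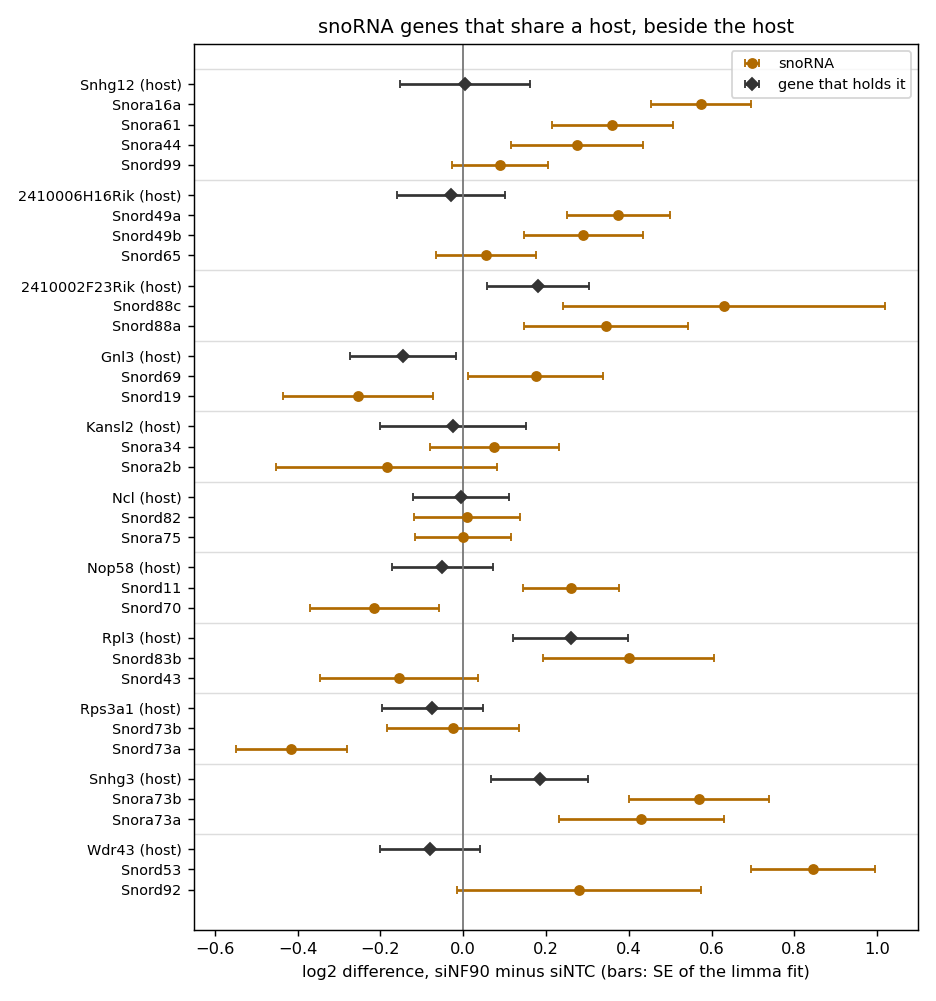
Difference between siNF90 and siNTC on the log2 scale, with the standard error of the limma fit as bars, for the 11 hosts that hold at least 2 measured snoRNAs (black diamonds) and for those 25 snoRNAs (brown circles). The 4 snoRNAs of Snhg12 and the 3 of 2410006H16Rik lie to the right of hosts that are near 0, and Gnl3, Kansl2, Nop58 and Rpl3 hold snoRNAs on both sides of 0.

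The symbols that define the members miss 8 genes that RefSeq types as snoRNA under clone or accession names, and these give a comparison outside the rule. Their median difference was 0.3525, with 7 higher and 1 lower in siNF90. The siNF90 arrays stood above without overlap in 5 (62.5%), against 21.9% of all genes and 26.3% of genes at or above the median level. All of these 5 except Gm26504 lie in the same host, Rian, so the share does not rest on separate observations. Gm26504, a Snord116 (MBII-85) gene of the imprinted region on chromosome 7, read 4.92 and 4.96 in siNF90 and 3.95 and 4.10 in siNTC, a difference of 0.915 ± 0.124 with an adjusted p of 0.344, or 0.0319 with the trend. It is a repeated gene, and its 15 probe sets hold identical values, so they count once. It lies within Ipw, an imprinted noncoding gene that read 3.48 and 3.30 in siNF90 and 2.66 and 2.69 in siNTC (0.715 ± 0.127, adjusted p 0.357), whereas the surrounding Snhg14, with overlapping arrays, had -0.38, or -0.115 without the second siNTC array.

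A further 5 of the 8 lie in Rian, the imprinted snoRNA host on chromosome 12, which read 8.09 and 7.94 in siNF90 and 7.75 and 7.78 in siNTC (0.25 ± 0.123). AF357355 read 7.62 and 7.66 in siNF90 and 7.09 and 7.04 in siNTC, a difference of 0.575 ± 0.117 with an adjusted p of 0.357, or 0.017 with the trend. DQ267101 read 5.12 and 5.17 in siNF90 and 4.05 and 4.67 in siNTC (0.785, and 0.38 from its other probe set), and DQ267102 read 5.68 and 5.94 in siNF90 and 5.17 and 5.55 in siNTC (0.45). AF357425 was higher by 0.175 without overlap, and AF357426, with 0.025, overlapped. So 4 of the 5 Rian snoRNAs stood above without overlap, as Rian did, with differences between 0.175 and 0.785. These 5 share a host and are not separate observations.

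Other gene sets were set beside the snoRNAs. The 483 microRNA genes had a median difference of 0, with siNF90 above without overlap in 68 (14.1%) and below in 79 (16.4%). Of them, 333 lay below the median level. Another 10 short RNA genes, of spliceosomal and other RNAs, had a median difference of 0.12, with 8 higher and 1 lower in siNF90. In these 10, siNF90 stood above without overlap in 4 (40%) and below in 1 (10%). The 65 ribosomal protein genes had a median difference of 0.13, with siNF90 above without overlap in 31 (47.7%) and below in 3 (4.62%). The 78 snoRNA members had 25 above (32.1%) and 13 below (16.7%). Among all genes 21.9% stood above and 17.9% below, and among genes at or above the median level 26.3% and 21.8%. The snoRNA share above lies between those of the microRNA and ribosomal protein genes. Their share below is the highest of the sets named here, close to that of the microRNA genes. It is nevertheless under the share below of all genes and of genes at or above the median level. No test of these differences was made.

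The proteins that build and trim snoRNPs showed no common shift. All 3 measured box C/D core genes were lower in value, Nop56 with 7.62 and 7.67 in siNF90 and 7.94 and 7.73 in siNTC (-0.19 ± 0.131), Nop58 with -0.05 and Snu13 with -0.04, and the last 2 overlapped. The median of the 3 is -0.05, but 0.065 when the probe sets of a gene are averaged, so its direction turns with that choice. The 4 box H/ACA core genes split evenly, with 0.165 for Nop10 and 0.11 for Nhp2, and -0.085 for Gar1 and -0.08 for Dkc1, the pseudouridine synthase. None of the genes of these 6 lists was called in either fit. Assembly and trafficking factors had 8 genes higher and 11 lower of 19, with a median of -0.095. Rpap3, part of the chaperone complex that assembles snoRNPs, read 4.31 and 3.57 in siNF90 and 3.43 and 3.32 in siNTC (0.565 ± 0.246), a spread carried by the first siNF90 array, and Larp7, which acts with box C/D RNAs on the U6 small nuclear RNA, read 6.39 and 6.37 in siNF90 and 6.60 and 6.71 in siNTC (-0.275).

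Trimming and decay factors had 6 higher and 13 lower of 19, with a median of -0.03. Exosc3, an exosome subunit, read 5.38 and 5.0 in siNF90 and 5.52 and 5.61 in siNTC (-0.375 ± 0.162), and Zcchc7, a subunit of the nuclear polyadenylation complex that feeds the exosome, read 5.13 and 5.22 in siNF90 and 5.51 and 5.41 in siNTC (-0.285 ± 0.122). Small subunit processome genes were evenly divided, 15 and 15 of 30, with a median of -0.0025. Nol11 read 5.87 and 5.83 in siNF90 and 6.23 and 6.35 in siNTC (-0.44 ± 0.121, adjusted p 0.403), and Mphosph10, a U3 snoRNP protein, read 4.01 and 3.80 in siNF90 and 3.51 and 3.46 in siNTC (0.42 ± 0.131, adjusted p 0.417). RNA polymerase I genes, which supply the rRNA precursor that snoRNAs act on, had 10 higher and 4 lower of 14 with a median of 0.1125, Polr1d at 0.31 ± 0.149 and Znrd1 at -0.29 ± 0.161 having the largest differences.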

How the data were processed

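RNA of Beta-TC-6 cells was measured on 4 Affymetrix Mouse Gene 2.1 ST arrays, 2 siNF90 and 2 siNTC. The deposited table holds log2 values. Per the submitters' processing notes the tool was Transcriptome Analysis Console; version, background correction and normalization are not given in the sources. The log base is not stated, and 2 was taken because some values exceed the natural log of the highest reading a scanner writes. Probe sets were named by the platform annotation. Of the 41345, 23521 had 1 symbol, which gave 22180 genes.

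The values were fitted with limma 3.58.1 in R 4.3.3 (lmFit and eBayes without a trend, 2 residual degrees of freedom and 3.92 from the prior, two-sided, Benjamini-Hochberg over all genes, threshold 0.05). An exact permutation test of 2 against 2 arrays cannot go below a p of 0.333 and was not used. With only 4 arrays, precision is limited. On simulated data with 200 of 22180 genes changed (5 draws), the fit found 43% of the log2 changes of 1 and 96.8% of those of 2, with 5.79% false calls. All changed genes lay at or above the median level, and variances were drawn without regard to level. In the data no member differed by 1 or more, and differences over all genes ran from -1.655 to 1.23. The simulation therefore does not show how often changes of the size seen in the members would be found.

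Members and gene lists were chosen with earlier results of these data known. Named were all Cajal body and host genes, the box C/D and H/ACA genes with the largest differences in each direction among those at or above the median level, the brightest of each class, those of rRNA cleavage, and from each protein list the 2 largest differences (61 of the 93 members); further genes were named after their values were seen. The host is the shortest RefSeq gene (GRCm38.p6) that spans the snoRNA; the plan asked for the same strand, but the table gives none, so strand was not checked. Sequences come from RefSeq; those of the snoRNAs themselves are not shown. Alternatives were the replicate block, a trend or robust prior, quantile normalization, median centring, a level filter, the mean over probe sets of each gene, all probe sets, and leaving out each array.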

Additional observations from a re-analysis of the deposited data

Results flagged for a closer look

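The probe sets named for Snord116l1 and Snord116l2 together with Gm26504 carry several symbols and so belong to no member, but they hold a signal outside the values used above. Their 16 probe sets have identical values, 4.79 and 4.84 in siNF90 and 3.83 and 3.98 in siNTC, a difference of 0.91 ± 0.13 (limma SE), with an adjusted p of 0.457 over every probe set. These are not independent of the Gm26504 probe sets given above, since the genes are copies. The 47 snoRNA probe sets with several symbols hold 32 distinct sets of values, 16 higher and 16 lower in siNF90, and those other than Snord116l range from -0.43 to 0.38.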

How the results depend on the processing

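No gene was called under any alternative except the trend in eBayes, which called 101 genes and 1 member. With the replicate block 0 genes and 0 members were called. Same-numbered arrays did not deviate together (correlation -0.02). With 2 arrays per group, this cannot show whether the numbers pair the samples. The Cajal body median was 0.155 over every probe set and 0.105 to 0.23 when each array was left out, against 0.235; leaving out each array, the other class medians ranged over 0.055 to 0.105 for box C/D, 0.0725 to 0.135 for box H/ACA and -0.03 to 0.125 for host transcripts. Of 61 named members, 43 never took the opposite sign, though Snord88c and Snhg17 reach 0 with an array left out; Snhg18 has no value under the level filter. The box C/D core protein median was 0.065 as the mean of probe sets and -0.165 without the second siNTC array, against -0.05. Snhg12 had -0.03 after quantile normalization and -0.015 after median centring, and Snora33 had -0.055 as the mean of its probe sets, which disagree. Leaving out each array gave ranges that cross 0 for Snhg5 (-0.43 to 0.03), Snhg7 (-0.355 to 0.225), Snhg9 (-0.145 to 0.085), Snhg10 (-0.18 to 0.30), Snhg11 (-0.345 to 0.155), Snhg12 (-0.175 to 0.185), Snhg20 (-0.215 to 0.445), Snora2b (-0.48 to 0.11), Snora7a (-0.645 to 0.145), Snora28 (-0.15 to 0.06), Snora34 (-0.105 to 0.255), Snora68 (-0.25 to 0.17), Snora69 (-0.005 to 0.775), Snord22 (-0.025 to 0.195), Snord43 (-0.39 to 0.08), Snord89 (-0.455 to 0.095) and Snord118 (-0.305 to 0.405). For the other moves the cause was not tested.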
